A study of Mus musculus with 22 samples.

Results

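Gene expression was measured on Affymetrix arrays in mouse embryonic stem (ES) cells in which the transcriptional coactivators YAP and TAZ had been depleted with small interfering RNA (siRNA). The arrays described here are the 15 of 22 in the series that came from medium with PD0325901 alone (PD-only), a MEK inhibitor. All groups were Rex1GFPd2 ES cells, a line whose Rex1 gene (Zfp42) carries a short-lived green fluorescent protein reporter, grown in Neurobasal and DMEM/F12 media with N2 and B27 supplements. Cells were reverse transfected with siControl#1 (4 arrays), siControl#2 (3 arrays), siYAP/TAZ#1 (4 arrays) or siYAP/TAZ#2 (4 arrays), the last 2 called mix 1 and mix 2 here, moved from 2i to PD-only medium after 24 hours and harvested 72 hours after transfection. 2i holds PD0325901 and CHIR99021, an inhibitor of the kinase GSK3, so each of these 4 groups had lost CHIR99021 before harvest. The remaining 7 arrays, of siControl#1 (4) and siControl#2 (3) cells in 2i, entered the fit for the estimate of spread. The YAP/TAZ siRNA arrays were also tested against them, only to find genes whose levels lay outside both sets of controls. Every gene on the array was compared between the 8 YAP/TAZ siRNA arrays, called the knockdown arm, and the 7 control arrays, with 1 mean per siRNA and each siRNA weighted equally. The labels call the arrays biological replicates without stating whether they came from separate experiments, so p-values measure the spread between these arrays, and their number limits the precision.

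YAP (gene Yap1) and TAZ (gene Wwtr1) are the transcriptional arms of the Hippo pathway. When the pathway's kinases are quiet, they enter the nucleus and act through the DNA-binding TEAD factors on genes of the cytoskeleton, adhesion and growth. Phosphorylated by the kinases LATS1 and LATS2, they stay in the cytoplasm, and the title of the series places them there within the complex that destroys beta-catenin. The comparison therefore addresses what the loss of YAP and TAZ does to gene expression in ES cells without GSK3 inhibition.

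Values are deposited log2 expression estimates, here called levels, and a difference of 1 is a 2-fold change. Errors of differences are standard errors (SE) of the limma model over 22 arrays. Calls used an adjusted p of 0.05 (Benjamini-Hochberg) over 18193 genes, each represented by its brightest probe set. The ES cell genes Pou5f1, Sox2 and Nanog were bright in the control arrays, with means of 12.58, 12.97 and 12.63. They stayed bright in the knockdown arrays (13.02, 13.03 and 12.91). Of 12 general pluripotency genes 5 were called higher and 6 lower, down to -0.80, and none changed by 2-fold. After subtraction of each array's median over the 18193 genes, 6 were higher and 2 lower, and the sign of their median turned. Array measures differed between the arms too. Among 7 measures tested with two-sided exact permutation tests, the array median over all probe sets was lower in the knockdown arm by 0.030 (adjusted p = 0.000363). The Actb 3′ minus 5′ value, a measure of RNA integrity and labelling, was higher by the same test (adjusted p = 0.000363). It lay between 0.88 and 1.07, against 0.66 to 0.75 in control arrays. By the same test, the Actb 3′ minus middle value differed by 0.138 (adjusted p = 0.000363) and the interquartile range by -0.070 (adjusted p = 0.00392). The Gapdh values differed less and in both directions. The 3′ minus 5′ value differed by 0.058 (adjusted p = 0.00326) and the 3′ minus middle value by -0.032 (adjusted p = 0.0477). Only the poly-A spikes did not pass (adjusted p = 0.25). With the Actb value as a covariate, limma called 8204 genes rather than 11250, and 814 rather than 813 genes lower by 2-fold or more. The Actb values of the arms did not overlap, so the covariate cannot be well separated from the arm. A call lost with it therefore does not show that a difference came from RNA integrity. Among lost calls, the difference was nearly kept at Axin1 (0.08 without and 0.07 with the covariate) and shrank at Sox2 (0.07 and 0.02). In these bulk samples, fewer cells of a type and less RNA per cell cannot be told apart.

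The targeted genes fell to a like extent with both mixes. Yap1 lay between 11 and 11.07 (median 11.05) in the control arrays and between 9.67 and 9.91 (median 9.76) in the knockdown arrays. It fell by 1.27 ± 0.03 (SE), to 41.4% of control (limma's adjusted p = 2.61e-18). Wwtr1 lay between 10.25 and 10.34 (median 10.29) in the control arrays and between 9.18 and 9.41 (median 9.225) in the knockdown arrays. It fell by 1.04 ± 0.03, to 48.7% of control (limma's adjusted p = 5.32e-17). For neither gene did the arms overlap, and neither mix stood apart from the other, with mix 1 minus mix 2 at 0.04 ± 0.04 for Yap1 and -0.05 ± 0.04 for Wwtr1.

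Depletion of YAP and TAZ shifted a large part of the transcriptome, and the largest shifts were downward. Of 18193 genes, 61.8% were called, 35.5% higher and 26.3% lower; at 2-fold or more 6.37% were called, 1.9% higher (346 genes) and 4.47% lower (813 genes). All counts of list members called higher and lower in this report stand beside these shares, 35.5% and 26.3% of all genes. Most calls were small, and the balance of higher against lower depended on scaling. The array median subtracted here and below was taken over the 18193 genes, not over all probe sets. Gene means had a median of 6.71 in the control arm and 6.57 with knockdown. The median difference over all genes was 0.06, and 57.4% of the calls were higher as deposited. After subtraction of each array's median 77.8% were higher, and the median difference moved to 0.20. Relative to the median difference as deposited, 44.9% were higher. At 2-fold or more these splits were 346 higher and 813 lower, 485 and 679, and 303 and 886. At 2 or more on the log2 scale, 50 genes were higher and 257 lower. At 4 or more on the log2 scale, 3 were higher, Nkx1-2, Trpm1 and 1700097N02Rik (4.56 ± 0.02; a gene beside Dnah8), and 45 were lower. The arms did not overlap at 40.4% of all genes, and at 812 of the 813 genes lower by 2-fold or more and all 346 higher ones. The 813 and 346 genes were chosen from the same arrays, so their separation adds no support to the calls. A gene with a low control level has little room to fall, so genes chosen by their fall tend to start high. The genes that fell by 2-fold or more had a median control level of 8.26, against 6.71 over all genes, and ended at a median of 6.24. Of them, 121 (14.9%) had a knockdown mean below the lowest quartile of gene levels (4.62), where 15 (1.85%) had lain in the control arm. The deposited values carry no detection calls, so no fold is given below where the mean of either arm lay under that quartile, and the log2 difference there can understate the change. The genes that rose had a median control level of 6.72 and of 8.19 with knockdown.

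**Figure D1:**
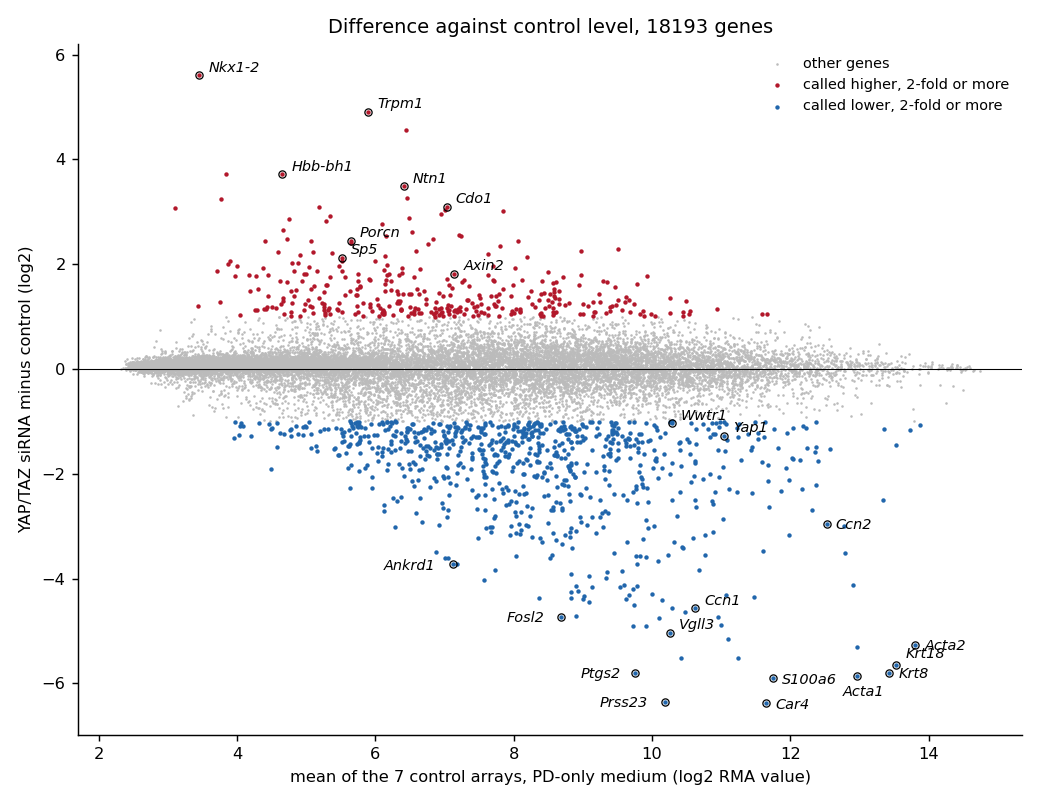
Difference between the knockdown and control arms (vertical, log2) against the mean of the 7 control arrays (horizontal, log2 RMA value) for 18193 genes, 1 point each, with genes called at 2-fold or more in red (346 higher) and blue (813 lower). The deepest falls lie at genes with high control levels, such as Krt8 and Acta2, and Nkx1-2, the largest rise, starts from a low control level. The control mean is part of the difference, and genes with low control levels have little room to fall, so this shape is partly built in.

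The siRNA mixes gave like responses. Each mix was compared with the control siRNA of the same number, a pairing that the labels do not state. These comparisons share no array but use the same estimate of spread. At 2-fold or more, 1172 genes passed the test with mix 1 (6.44% of all genes) and 1167 with mix 2 (6.41%). Of these, 1087 did so with both and in the same direction (92.7% of the mix 1 genes and 93.1% of the mix 2 genes), 766 lower and 321 higher, and none in opposite directions. Without the fold threshold, both mixes called 8246 genes in the same direction and 0 in opposite directions. With the control siRNAs exchanged, these counts were 8182 and 3. Among the 1087, the gap between the responses had a median of 0.06 and a 90th percentile of 0.20. The largest, 0.60, was at Bmpr1b, a type I receptor for bone morphogenetic proteins (BMPs), which rose by 1.81 ± 0.09 with mix 1 and 1.22 ± 0.10 with mix 2. In the direct comparison of mix 1 with mix 2, limma called no gene (649 at an unadjusted p of 0.05, or 3.57%), also with a trended, robust variance model (611). The test of the difference between the responses likewise called no gene (613 at an unadjusted p of 0.05). The control siRNAs differed at no gene either (769 at an unadjusted p of 0.05), or at 1 gene with the trended, robust model. A p that misses the threshold does not show that siRNAs act alike, and 99% of genes differed by at most 0.23 between the mixes and 0.26 between the controls.

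**Figure D2:**
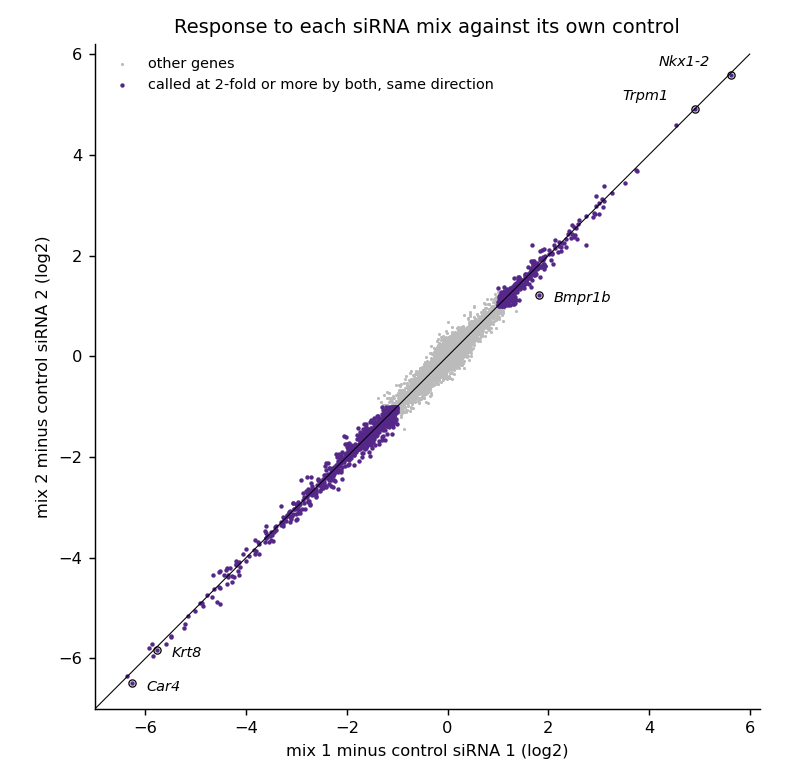
Response to mix 1 against control siRNA 1 (horizontal, log2) and to mix 2 against control siRNA 2 (vertical, log2), 1 point per gene, with the line of equal response; purple marks the 1087 genes called at 2-fold or more by both in the same direction. The points keep close to the line over the whole range from Car4 to Nkx1-2, and Bmpr1b lies off it.

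YAP and TAZ act with the TEAD factors and compete there with Vestigial-like proteins. Among the 10 genes of this group, Vgll3, a TEAD cofactor, changed most. Its level lay between 10.17 and 10.34 (median 10.27) in the control arrays and between 4.99 and 5.41 (median 5.27) in the knockdown arrays, and fell by 5.04 ± 0.07 (limma's adjusted p = 2.76e-22). Vgll4, which blocks YAP at TEAD, fell by 1.30 ± 0.10. The TEAD factors themselves differed by small amounts: Tead1, with a control mean of 11.31, by -0.08 ± 0.02 (0.05 with the array median subtracted), Tead2 by 0.21 ± 0.03, Tead4 by 0.10 ± 0.04 (not called with the Actb covariate) and Tead3, not called, by -0.09 ± 0.06. Vgll1 and Vgll2 were not called (0.08 ± 0.08 and -0.06 ± 0.05).

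Of 21 measured Hippo kinases, scaffolds and angiomotins, 14 were lower and 5 higher, 5 of them lower by 2-fold or more. By the brightest probe set, the deepest falls were at Amot, Ptpn14 and Amotl2, whose proteins hold YAP in the cytoplasm or at junctions. Amot, which encodes angiomotin, lay between 10.38 and 10.48 (median 10.46) in the control arrays and between 6.96 and 7.13 (median 7.005) in the knockdown arrays, and fell by 3.42 ± 0.04. The phosphatase gene Ptpn14 fell by 2.51 ± 0.03, Amotl2 fell by 2.33 ± 0.03, the LIM protein gene Ajuba fell by 1.70 ± 0.03 and Frmd6 fell by 1.05 ± 0.04. The scaffold genes Wwc2 (-0.94 ± 0.04) and Wwc1 (-0.85 ± 0.03) fell. Limma's adjusted p was at most 8.84e-15 in these 7 genes. The rises were small, with Dlg5 at 0.41 ± 0.04, Taok2 at 0.34 ± 0.04, Map4k4 at 0.31 ± 0.05 and Nf2 at 0.28 ± 0.03. Probe sets of the core kinase gene Lats2 disagreed. The brightest over all 22 arrays fell by 0.36 ± 0.06 (not called with the Actb covariate, limma's adjusted p = 0.0925), 2 others changed by -3.27 ± 0.08 and -3.90 ± 0.08 from control means of 7.17 and 7.65, and a dim one was called higher by 0.20.

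Of 22 measured genes known as targets of YAP/TAZ with TEAD, 17 were lower (12 by 2-fold or more), 3 higher and 2 not called, with a median of -1.67 against 0.06 over all genes and 61.8% of all genes called. The secreted matricellular protein gene Ccn1 (CYR61) lay between 10.54 and 10.7 (median 10.65) in the control arrays and between 5.82 and 6.17 (median 6.08) in the knockdown arrays, and fell by 4.57 ± 0.05, or 23.7-fold. Ccn2 (CTGF) lay between 12.46 and 12.58 (median 12.53) in the control arrays and between 9.48 and 9.64 (median 9.59) in the knockdown arrays, and fell by 2.95 ± 0.03. Ankrd1, a nuclear ankyrin repeat gene, lay between 7.01 and 7.32 (median 7.08) in the control arrays and between 3.16 and 3.62 (median 3.4) in the knockdown arrays, and fell by 3.73 ± 0.06. In all 3 genes every knockdown array was below every control array (limma's adjusted p at most 9.11e-21). Tissue factor (F3, -4.32 ± 0.04), the growth factor gene Tgfb2 (-4.29 ± 0.06), Ccdc80 (-4.14 ± 0.07) and the receptor kinase gene Axl (-3.06 ± 0.05) fell too. Dock5 (0.51 ± 0.04), Myof (0.33 ± 0.04) and Foxf2 (0.17 ± 0.07) were the members called higher; Foxf2 lost its call with the Actb covariate (limma's adjusted p = 0.482) and Myof without probe sets of the x_at and s_at kinds (0.261), whose probes may match other genes. The letters GGAATG, the core bound by TEAD, stood on either strand in 6 of the 13 list members' promoters with a single listed start (250 bases before to 50 after it; RefSeq, GRCm38.p6), against 12.9% of 11720 promoters. They were the promoters of Ptpn14, Ccn1, Axl, Amotl2, Crim1 and Ankrd1. The 250 bases before the start of Ccn1 (chr3:145649986-145650235) and Ankrd1 (chr19:36119845-36120094), both on the minus strand and written 5′ to 3′ in the gene's direction, show where the letters, in capitals, stand in genes that fell by over 3 on the log2 scale.
Ccn1: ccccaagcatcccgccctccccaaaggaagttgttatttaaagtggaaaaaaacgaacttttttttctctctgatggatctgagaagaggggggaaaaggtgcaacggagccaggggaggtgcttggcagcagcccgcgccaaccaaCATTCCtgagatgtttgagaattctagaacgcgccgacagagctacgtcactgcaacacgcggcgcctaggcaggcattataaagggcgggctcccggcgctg
Ankrd1: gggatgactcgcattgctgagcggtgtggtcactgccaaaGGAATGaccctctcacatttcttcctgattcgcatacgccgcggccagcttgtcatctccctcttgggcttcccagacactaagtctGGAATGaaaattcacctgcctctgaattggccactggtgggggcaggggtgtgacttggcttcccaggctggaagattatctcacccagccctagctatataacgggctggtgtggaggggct
In Ccn1 the match, on the opposite strand, begins 103 bases before the start. Ankrd1 holds 2, the first beginning 210 bases before it.

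TEAD factors often bind beside AP-1, the dimers of Fos, Jun and related factors. Of 14 AP-1 genes 10 were lower, 6 by 2-fold or more, and 1 was higher. Fosl2 lay between 8.38 and 8.93 (median 8.7) in the control arrays and between 3.69 and 4.14 (median 4.025) in the knockdown arrays, and fell by 4.73 ± 0.09. Fos lay between 9.35 and 9.53 (median 9.43) in the control arrays and between 5.57 and 6.14 (median 5.99) in the knockdown arrays, and fell by 3.52 ± 0.09. Jun lay between 8.79 and 8.89 (median 8.84) in the control arrays and between 5.13 and 5.66 (median 5.475) in the knockdown arrays, and fell by 3.41 ± 0.07. In none of the 3 did the arms overlap (limma's adjusted p at most 4.75e-18). Atf3 (-2.58 ± 0.08), Jdp2 (-2.41 ± 0.04) and Junb (-1.59 ± 0.10) also fell by 2-fold or more. Mafg rose by 0.22 ± 0.03. Fosb and Fosl1, both dim, were not called, nor was Batf, whose lowest control array was at 6.16. A dim second probe set was called higher for Jdp2 (0.21) and Jund (0.24), which fell by 0.96 ± 0.03 at its brightest. Among 14 other immediate early genes, 7 were lower and 2 higher (6 and 5 with the array median subtracted): Klf6 (-2.86 ± 0.05), Ier3 (-2.12 ± 0.06) and Zfp36 (-1.35 ± 0.07), whose protein destabilises messenger RNA, fell most, while Egr1, a classic target of the MEK pathway blocked in all groups, was low in the control arm (5.37) and differed by -0.17 ± 0.07 (limma's adjusted p = 0.0494, and 0.302 with the Actb covariate).

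Genes of contractile actin fell together. All 22 measured actin cytoskeleton genes and targets of serum response factor (SRF) were lower, 18 by 2-fold or more, with a median of -2.35. With the array median subtracted 21 were lower and Cnn3 higher, and with the Actb covariate 21 were lower and none higher. Smooth muscle actin, Acta2, was among the brightest genes of the control arm. It lay between 13.75 and 13.86 (median 13.81) in the control arrays and between 8.5 and 8.59 (median 8.54) in the knockdown arrays, and fell by 5.27 ± 0.02 or 38.5-fold (limma's adjusted p = 1.85e-29). Skeletal actin, Acta1, lay between 12.75 and 13.05 (median 12.98) in the control arrays and between 6.92 and 7.18 (median 7.12) in the knockdown arrays, and fell by 5.86 ± 0.09. Cardiac actin, Actc1, lay between 11.02 and 11.18 (median 11.11) in the control arrays and between 5.71 and 6.23 (median 5.955) in the knockdown arrays, and fell by 5.16 ± 0.07. The actin-binding genes Tagln (-5.31 ± 0.06), Cnn1 (-4.39 ± 0.07) and Cald1 (-3.50 ± 0.02) and the light chain gene Myl9 (-4.56 ± 0.10) fell with them. The gene for SRF itself fell by 0.96 ± 0.04. Smaller changes were seen at Vim (-0.65 ± 0.04), Zyx (-0.44 ± 0.07) and Cnn3 (-0.07 ± 0.02), and cytoplasmic Actb fell by 0.32 ± 0.03. The box bound by SRF (CArG: CC, 6 A or T, GG) stood in 5 of 18 of these promoters, those of Actc1, Myl9, Acta1, Cnn2 and Vcl, against 1.37% of all, and GGAATG in 7 of 18. The 250 bases before the 3 actin genes are shown because the genes fell by like amounts with different sets of exact matches to these letters. All lie on the minus strand of GRCm38.p6 and are written in the gene's direction, with CArG boxes and GGAATG or its complement CATTCC in capitals: Acta1 at chr8:123894776-123895025, Acta2 at chr19:34255374-34255623 and Actc1 at chr2:114052876-114053125.
Acta1: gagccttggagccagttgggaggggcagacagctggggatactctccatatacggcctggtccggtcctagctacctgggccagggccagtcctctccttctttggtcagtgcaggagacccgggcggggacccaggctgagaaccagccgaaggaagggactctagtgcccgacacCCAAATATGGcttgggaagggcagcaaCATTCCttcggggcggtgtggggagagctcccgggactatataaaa
Acta2: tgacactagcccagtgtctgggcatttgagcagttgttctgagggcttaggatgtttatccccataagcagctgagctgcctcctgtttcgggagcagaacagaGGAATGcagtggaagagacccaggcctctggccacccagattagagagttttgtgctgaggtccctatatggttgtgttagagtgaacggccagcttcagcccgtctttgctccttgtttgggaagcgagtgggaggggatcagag
Actc1: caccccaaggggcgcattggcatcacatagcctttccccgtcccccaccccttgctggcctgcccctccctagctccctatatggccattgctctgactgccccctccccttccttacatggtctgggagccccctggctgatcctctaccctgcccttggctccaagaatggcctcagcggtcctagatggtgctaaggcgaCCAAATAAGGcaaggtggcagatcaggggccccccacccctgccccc
The Acta1 window holds a CArG box and, closer to the start, a TEAD core. Of exact matches, the Acta2 window holds a TEAD core alone and the Actc1 window a CArG box alone, and no 2 matches overlap. Sequences 1 base off the CArG pattern were not marked. They include ccctatatgg in the Acta2 and Actc1 windows and ccatatacgg in the Acta1 window. The windows are therefore not shown to lack a site for SRF, and binding was not tested.

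**Figure D3:**
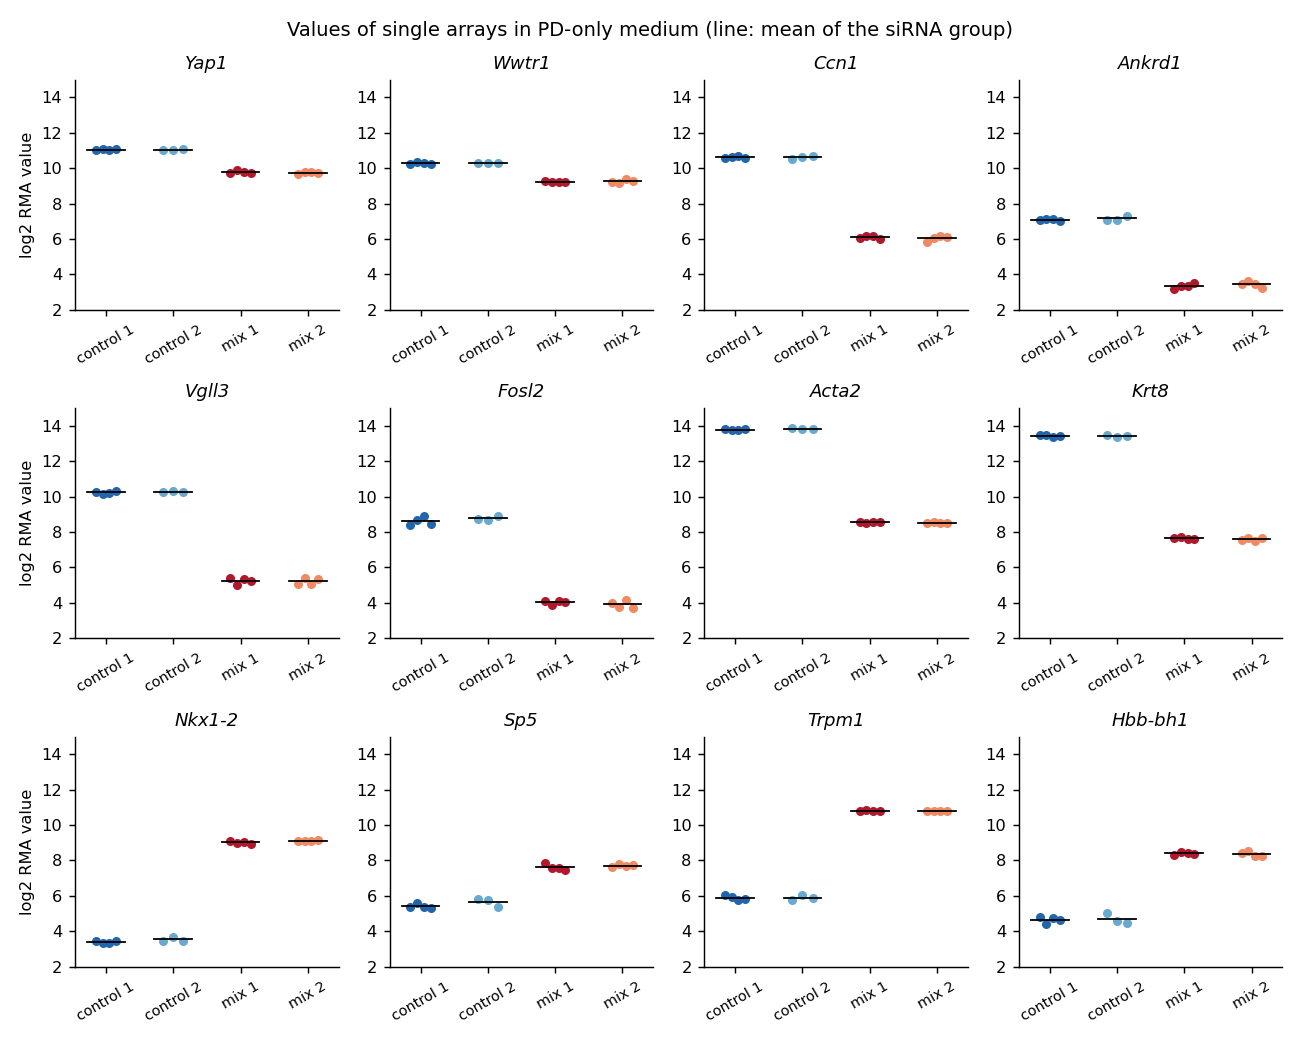
Levels (log2 RMA value) of 12 genes in each of the 15 PD-only arrays, 1 point per array, in columns for control siRNA 1 and 2 and YAP/TAZ mix 1 and 2; the line is the mean of the siRNA group. In all 12 the knockdown arrays lie apart from the control arrays, with Yap1 and Wwtr1 about 1 unit lower, Acta2 and Krt8 over 5 units lower and Nkx1-2 over 5 units higher.

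Simple-epithelium keratins fell as deeply as the actins. Krt8 lay between 13.37 and 13.46 (median 13.43) in the control arrays and between 7.5 and 7.74 (median 7.635) in the knockdown arrays, and fell by 5.80 ± 0.03 or 55.8-fold (limma's adjusted p = 1.36e-28). Its partner Krt18, the adjacent gene on chromosome 15, lay between 13.48 and 13.58 (median 13.53) in the control arrays and between 7.73 and 7.97 (median 7.915) in the knockdown arrays, and fell by 5.65 ± 0.04. Krt19 fell by 4.64 ± 0.05 and Krt7 fell by 4.33 ± 0.07. The other 44 of 48 measured keratins, most of them dim, did not reach 2-fold. Of 11 annexins, calcium-dependent membrane-binding proteins, 7 fell, with Anxa3 (-4.73 ± 0.06), Anxa2 (-4.35 ± 0.04), Anxa1 (-4.12 ± 0.03) and Anxa5 (-2.35 ± 0.04) the most. The calcium-binding gene S100a6 lay between 11.64 and 11.84 (median 11.74) in the control arrays and between 5.55 and 6.05 (median 5.87) in the knockdown arrays, and fell by 5.90 ± 0.07. S100a10, whose protein pairs with annexin A2, fell by 1.51 ± 0.03. Of the remaining S100 genes S100a13 rose by 1.04 ± 0.05 and the others stayed under 2-fold. Car4, a membrane-bound carbonic anhydrase, fell the most among genes named by rule. It lay between 11.59 and 11.75 (median 11.63) in the control arrays and between 5.07 and 5.54 (median 5.28) in the knockdown arrays, and fell by 6.38 ± 0.07 or 83.5-fold. The soluble enzyme gene Car2 fell by 1.30 ± 0.03.

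Desmosome and tight junction genes were mostly lower, 13 of 15 against 0 higher, among them the desmosomal cadherin gene Dsc2 (-3.60 ± 0.07), Perp (-2.24 ± 0.05), desmoplakin (Dsp, -2.05 ± 0.05) and cingulin (Cgn, -1.94 ± 0.07). Claudins and connexins followed no common direction, and 55% and 61.5% of them were called, near the 61.8% of all genes. Of 20 claudins 8 were lower and 3 higher (8 and 7 with the array median subtracted), with Cldn7 (-3.20 ± 0.04) and Cldn6 (-2.38 ± 0.06) lowest and Cldn5 (1.41 ± 0.09) highest. Of 13 connexins 5 were higher, 3 lower and 5 not called (9 higher and 3 lower with the array median subtracted). Gja1 lay between 12.25 and 12.37 (median 12.3) in the control arrays and between 9.54 and 9.73 (median 9.59) in the knockdown arrays, and fell by 2.70 ± 0.03. Gjc1 rose by 1.56 ± 0.03. The epithelial splicing regulator gene Esrp1 fell by 3.04 ± 0.06 and Epcam fell by 1.82 ± 0.03, while Cdh1, encoding E-cadherin, with a control mean of 12.56, differed by -0.07 ± 0.03 (0.07 with the array median subtracted).

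In the extracellular matrix, 20 of 42 collagen chains were lower and 4 higher, 12 lower by 2-fold or more (17 lower and 15 higher with the array median subtracted). Col1a2 lay between 9.64 and 9.82 (median 9.72) in the control arrays and between 4.73 and 5.53 (median 5.255) in the knockdown arrays, and fell by 4.50 ± 0.08. Col5a2 fell by 4.41 ± 0.04, Col1a1 fell by 3.95 ± 0.08 and the adjacent genes of the basement membrane chains Col4a2 (-4.21 ± 0.05) and Col4a1 (-3.83 ± 0.04) fell. Enzymes that process collagen went with them, 11 of 15 lower, such as Loxl1 (-2.68 ± 0.08), the collagen chaperone gene Serpinh1 (-1.75 ± 0.03) and P4ha2 (-1.53 ± 0.05). Thrombospondin 1, Thbs1, lay between 10.34 and 10.47 (median 10.41) in the control arrays and between 4.57 and 5.13 (median 4.905) in the knockdown arrays, and fell by 5.52 ± 0.07. Ccn4 fell by 4.91 ± 0.07, periostin (Postn) fell by 3.02 ± 0.05 and Sparc fell by 2.12 ± 0.03 (a dim probe set of Sparc was not called), while Fbln1 rose by 1.49 ± 0.04. Of 22 extracellular proteases and inhibitors 12 were lower and 5 higher (11 and 10 with the array median subtracted). The serine protease gene Prss23 lay between 9.83 and 10.39 (median 10.24) in the control arrays and between 3.64 and 3.97 (median 3.82) in the knockdown arrays, and fell by 6.36 ± 0.08. Timp2 (-3.85 ± 0.08), Timp3 (-2.99 ± 0.07), Adamts5 (-3.73 ± 0.10) and Adamts1 (-3.11 ± 0.09) fell too. Receptors of the matrix showed no common direction. Of 24 integrins 10 were lower and 7 higher, against 26.3% and 35.5% of all genes (7 lower and 12 higher with the array median subtracted, which turned the sign of their median). The integrins lower by 2-fold or more were Itgb1 (-1.38 ± 0.06) and Itgb8 (-1.32 ± 0.11), and Cd44 fell by 1.57 ± 0.13. Several of the matrix genes also mark fibroblasts. Of 11 measured fibroblast markers 8 were lower, 6 by 2-fold or more, and none higher (2 with the array median subtracted). Their levels summed to between 421 and 468 linear units in the knockdown arrays and between 2342 and 2601 in the control arrays. The remaining 3, Lum, Prrx1 and Thy1, were not called, with control means of 3.13, 4.21 and 6.06; Prrx1 was called lower (-0.18) with the mean of all probe sets, and Lum (0.17) and Thy1 (0.22) higher with the array median subtracted. Primitive endoderm markers, which share Col4a1 and Col4a2 with the collagens, were lower in 9 of 16 cases and higher in 2, and summed to between 2302 and 2409 units with knockdown and between 6787 and 7248 in controls; 4 were lower by 2-fold or more. Among the 5 not called were the genes of the lineage's transcription factors Gata4 and Sox7, both called higher with the array median subtracted (0.25 and 0.17). Trophoblast markers, among them Krt7, were lower in 6 of 14 cases and higher in 4, or 5 and 6 with the array median subtracted (sums of 1767 to 2056 against 2242 to 2479). The part of such cells in the results was not tested.

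Secreted signals changed in several families. Cyclooxygenase 2, Ptgs2, which starts prostaglandin synthesis, lay between 9.56 and 9.88 (median 9.73) in the control arrays and between 3.52 and 4.4 (median 4) in the knockdown arrays, and fell by 5.79 ± 0.10. Pla2g4a, the phospholipase that frees its substrate and its neighbour on chromosome 1, fell by 2.68 ± 0.09, and the prostaglandin receptor gene Ptger2 rose by 1.86 ± 0.08. Of 23 BMP pathway genes 17 were lower and 2 higher. Bmp2 lay between 7.53 and 7.96 (median 7.71) in the control arrays and between 3.72 and 4.06 (median 3.9) in the knockdown arrays, and fell by 3.84 ± 0.07. Bmp4 fell by 1.34 ± 0.04. The Id genes, which BMP signalling induces, split: Id3 (-2.20 ± 0.05), Id2 (-2.10 ± 0.07) and Id1 (-1.86 ± 0.06) fell and Id4 rose (1.67 ± 0.03). In the TGF-beta and Nodal branch, 14 of 23 were lower and 6 higher (9 and 8 with the array median subtracted), with the receptor gene Tgfbr2 at -2.08 ± 0.07, the activin antagonist Fst at -2.06 ± 0.04, and the Nodal antagonists Lefty2 at 1.77 ± 0.04 and Lefty1 at 0.76 ± 0.03. Fgf5, a growth factor of the epiblast after implantation, lay between 8.87 and 9.08 (median 9) in the control arrays and between 4.37 and 4.91 (median 4.605) in the knockdown arrays, and fell by 4.39 ± 0.12, while Fgf4, the main ES cell ligand, was not called (0.02 ± 0.03). Igfbp4, which binds insulin-like growth factors, fell by 3.66 ± 0.07, with its other probe sets between -3.99 and -0.04, and the receptor gene Igf1r fell by 1.84 ± 0.05. Of 15 VEGF and PDGF genes 8 were lower and 5 higher, and Vegfa fell by 1.37 ± 0.06 and its receptor gene Flt1 by 2.06 ± 0.07. Guidance genes followed no common direction. Of 29 semaphorins and plexins 12 were higher and 9 lower (16 and 7 with the array median subtracted). Of 21 ephrins and their receptors 7 were higher and 5 lower (11 and 4 with the array median subtracted). The lowest members of these lists were Sema3c (-3.27 ± 0.06) and Efna5 (-3.13 ± 0.08). Unlike Sema3c and Efna5, netrin 1 (Ntn1) was higher. It lay between 6.22 and 6.59 (median 6.39) in the control arrays and between 9.85 and 9.93 (median 9.89) in the knockdown arrays, and rose by 3.48 ± 0.04 or 11.2-fold. Limma's adjusted p was at most 9.95e-14 in the called genes of this paragraph.

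Of 13 LIF receptor, STAT3 and target genes 7 were lower and 4 higher, with a median of -0.44. Socs3, the inhibitor induced by STAT3, lay between 8.8 and 9.08 (median 8.89) in the control arrays and between 4.45 and 5.07 (median 4.655) in the knockdown arrays, and fell by 4.24 ± 0.08. Stat3 fell by 0.87 ± 0.03, while Il6st, which encodes the receptor subunit gp130, rose by 0.53 ± 0.03 and Pim1 rose by 0.22 ± 0.03. Among feedback genes of the ERK pathway, whose kinase MEK was inhibited in every group, 8 of 13 were higher and 4 lower (5 and 4 with the Actb covariate), with Phlda1 (-2.45 ± 0.06) and Dusp5 (-1.51 ± 0.04) lowest and Il17rd (1.43 ± 0.03) highest.

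Since the title of the series concerns the beta-catenin destruction complex, its 13 genes were all examined: 5 were higher, 6 lower and 2 not called (8 higher and 3 lower with the array median subtracted). Axin2, a component that beta-catenin itself induces, lay between 7.01 and 7.35 (median 7.14) in the control arrays and between 8.86 and 9.09 (median 8.955) in the knockdown arrays, and rose by 1.82 ± 0.04 (limma's adjusted p = 1.97e-18). The next largest rise was at the ubiquitin ligase gene Btrc (0.53 ± 0.05). Apc (0.14 ± 0.03), Axin1 (0.08 ± 0.03) and Apc2 (0.21 ± 0.05) were called higher by small amounts, the kinase genes Csnk1e (-0.49 ± 0.03), Csnk1d (-0.41 ± 0.03), Csnk1a1 (-0.23 ± 0.02) and Gsk3b (-0.17 ± 0.05) lower, as were Amer1 (-0.12 ± 0.04) and beta-catenin (Ctnnb1, -0.08 ± 0.02). Gsk3a (0.06 ± 0.04) and Fbxw11 (0.03 ± 0.03) were not called. With the array median subtracted, Amer1 (0.02) and Ctnnb1 (0.05) took the opposite sign. With the Actb covariate, Axin1 (0.07), Apc2 (0.19), Gsk3b (-0.11) and Ctnnb1 (-0.05) kept their signs but were not called. Csnk1d was not called without probe sets of the x_at and s_at kinds (-0.07).

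Known targets of Wnt and beta-catenin, 18 of them measured, were called higher in 10 cases (6 at 2-fold or more) and lower in 4, and 4 missed the test (14 higher and 2 lower with the array median subtracted). Sp5, a transcription factor gene driven by TCF/LEF and beta-catenin, lay between 5.32 and 5.81 (median 5.39) in the control arrays and between 7.45 and 7.85 (median 7.64) in the knockdown arrays, and rose by 2.13 ± 0.07 or 4.37-fold. Cdx1 rose by 1.96 ± 0.07 and Tnfrsf19 rose by 1.69 ± 0.03, and the antagonist gene Dkk1 fell by 3.29 ± 0.06. The letters ATCAAAG, bound by TCF/LEF factors, stood in 2.87% of all promoters, in 3.72% of those of the genes that rose by 2-fold or more and in 1 of 7 on this list. That promoter was Sp5's (plus strand), and the 250 bases before its start (chr2:70474673-70474922) are shown with the match, on the opposite strand, in capitals.
Sp5: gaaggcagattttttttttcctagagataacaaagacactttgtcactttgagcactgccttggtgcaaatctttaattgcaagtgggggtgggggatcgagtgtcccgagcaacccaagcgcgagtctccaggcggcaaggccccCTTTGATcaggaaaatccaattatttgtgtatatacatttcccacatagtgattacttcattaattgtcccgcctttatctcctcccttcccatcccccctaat
It begins 104 bases before the start. At the level of ligands and receptors, 14 of 29 ligand, secretion and receptor genes were lower and 9 higher, against 26.3% and 35.5% of all genes (12 lower and 13 higher with the array median subtracted, which turned the sign of their median). Porcn, whose enzyme acylates Wnt proteins, lay between 5.43 and 5.94 (median 5.64) in the control arrays and between 7.98 and 8.22 (median 8.105) in the knockdown arrays, and rose by 2.45 ± 0.06. Wls, which carries them to the surface, lay between 9.56 and 9.69 (median 9.63) in the control arrays and between 6.2 and 6.47 (median 6.36) in the knockdown arrays, and fell by 3.30 ± 0.04. The ligand genes Wnt4 (-2.83 ± 0.05) and Wnt9a (-1.83 ± 0.07) fell, the receptor gene Fzd2 fell by 2.50 ± 0.04 and Fzd10 rose by 1.52 ± 0.05. Limma's adjusted p was at most 7.59e-15 in these genes.

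Posterior genes were led by the homeobox gene Nkx1-2, the largest rise on the array. It lay between 3.35 and 3.69 (median 3.44) in the control arrays and between 8.95 and 9.14 (median 9.085) in the knockdown arrays, and rose by 5.60 ± 0.04 (limma's adjusted p = 4.39e-27). Of the 15 posterior and mesendoderm genes 7 were higher and 3 lower, beside 35.5% and 26.3% of all genes; these counts were 12 and 1 with the array median subtracted and 4 and 0 with the Actb covariate. Cdx2 rose by 1.07 ± 0.07, Evx1 rose by 0.56 ± 0.11, and Tbx6, Wnt3a, Lhx1 and Hoxb1 were not called. Of 33 Hox genes 6 were higher, 4 lower and 23 not called (21 higher and 3 lower with the array median subtracted, 2 and 4 relative to the median difference of all genes), and none changed by 2-fold.

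Naive pluripotency genes were mostly higher, 14 of 18 against 2 lower, with Nr5a2 (1.60 ± 0.03) and Tfcp2l1 (1.36 ± 0.02) the most. The gene of the line's reporter locus, Zfp42, narrowly missed the call (0.06 ± 0.03, limma's adjusted p = 0.051). It was called higher in several other settings. Among them were the trended, robust variance model (limma's adjusted p = 0.00912) and the array median subtracted (0.20). Formative and primed genes were mostly lower, 10 of 13 against 3 higher; besides Fgf5, the neural and epiblast factor gene Sox11 lay between 10.5 and 10.67 (median 10.59) in the control arrays and between 7.25 and 7.49 (median 7.38) in the knockdown arrays, and fell by 3.22 ± 0.05. Pou3f1 fell by 1.74 ± 0.04 (its other probe set fell by 4.58 ± 0.07) and Otx2 fell by 1.24 ± 0.03. Of 8 DNA methylation genes 5 were higher and 2 lower. Dnmt3l, the cofactor of the de novo enzymes, fell by 1.53 ± 0.05 and Dnmt3b fell by 0.55 ± 0.03, while the maintenance genes Dnmt1 (0.41 ± 0.02) and Uhrf1 (0.43 ± 0.02) rose. Imprinted genes, which are expressed from 1 parental allele, were lower in 17 of 22 cases and higher in 4. Peg3 lay between 13.31 and 13.37 (median 13.36) in the control arrays and between 10.79 and 10.88 (median 10.85) in the knockdown arrays, and fell by 2.50 ± 0.03. The neighbours Peg10 (-2.97 ± 0.09) and Sgce (-2.93 ± 0.04) fell, Phlda2 fell by 1.88 ± 0.05 and Igf2 fell by 1.68 ± 0.06, and Plagl1 rose by 1.06 ± 0.03. Germline genes went both ways, with the kinase gene Aurkc (3.26 ± 0.04) and the axonemal dynein gene Dnah8 (3.03 ± 0.03) among the highest on the array, Dazl at 1.45 ± 0.04 and Mael at -1.94 ± 0.04.

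**Figure D4:**
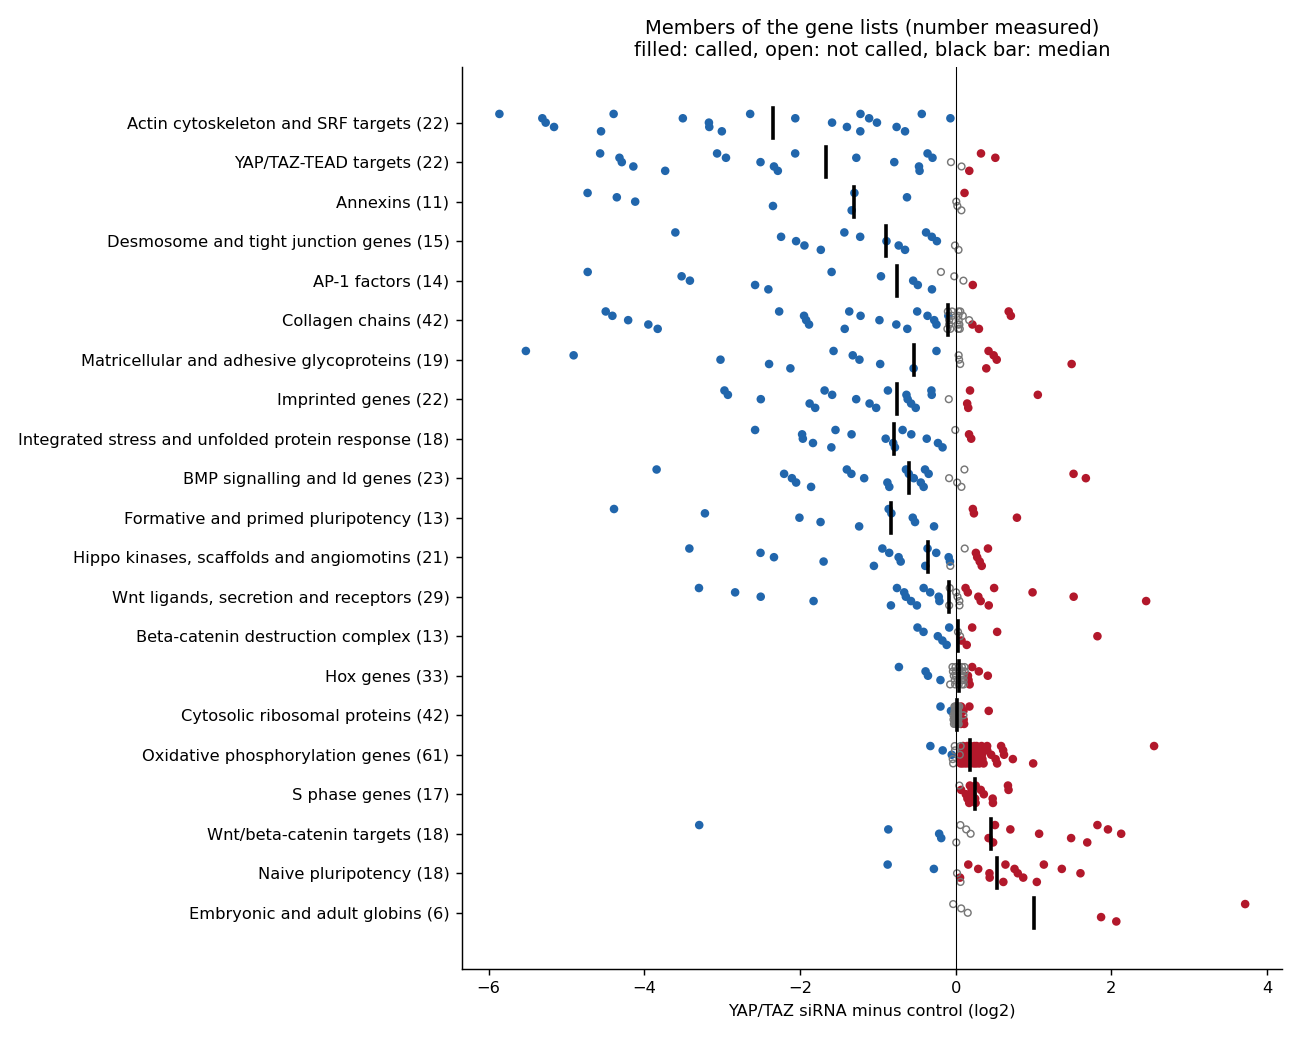
Difference between the knockdown and control arms (log2) for each measured member of 21 gene lists, 1 point per gene, red where called higher, blue where called lower and open where not called, with the list's median as a black bar. Actin and SRF genes lie wholly to the left of 0 and S phase genes in a narrow band to its right. Most oxidative phosphorylation genes lie a little to the right of 0, but the list runs from -0.325 to 2.55, where Cox7a1 stands apart. The destruction complex is spread around 0 with Axin2 apart.

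Other large rises were at genes of several kinds. The cation channel gene Trpm1 lay between 5.75 and 6.05 (median 5.85) in the control arrays and between 10.77 and 10.87 (median 10.795) in the knockdown arrays, and rose by 4.91 ± 0.04 or 30-fold. Ccdc141 (3.72 ± 0.09), the immune receptor gene Btla (3.24 ± 0.10), the lysosomal mannosidase gene Manba (3.02 ± 0.03), Mymx, needed for myoblast fusion (2.96 ± 0.04), and the glutathione transferase gene Gsta3 (2.92 ± 0.05) also rose. Cysteine dioxygenase, Cdo1, lay between 6.86 and 7.13 (median 7.06) in the control arrays and between 10.03 and 10.22 (median 10.125) in the knockdown arrays, and rose by 3.10 ± 0.04. Dimethylglycine dehydrogenase, Dmgdh, lay between 4.89 and 5.48 (median 5.25) in the control arrays and between 8.15 and 8.47 (median 8.27) in the knockdown arrays, and rose by 3.09 ± 0.07. Its neighbour on chromosome 13, Bhmt2, rose by 2.48 ± 0.10 and Bhmt rose by 1.49 ± 0.07. The serine synthesis genes Phgdh (-1.13 ± 0.03), Psat1 (-0.78 ± 0.02) and Psph (-0.67 ± 0.03) fell. In all, 12 of 19 genes of serine, glycine, one-carbon and sulphur amino acid metabolism were higher and 6 lower.

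Small but broad rises were seen in metabolism and replication. Of 61 oxidative phosphorylation genes 52 were higher and 3 lower, with a median of 0.18. Relative to the median difference of all genes 41 were higher and 7 lower, and with the Actb covariate 39 and 1. The muscle-type subunit gene Cox7a1 stood apart. It lay between 7.1 and 7.31 (median 7.21) in the control arrays and between 9.62 and 9.83 (median 9.77) in the knockdown arrays, and rose by 2.55 ± 0.04. Glycolysis genes were higher in 13 of 16 cases and lower in 3, against 35.5% and 26.3% of all genes, with Aldoc (1.16 ± 0.04) and Pdk1 (1.04 ± 0.04) highest, and Slc2a1, a transporter that brings glucose in, lowest at -1.16 ± 0.03. S phase genes were higher in 16 of 17 cases and lower in none, by a median of 0.25, also relative to the median difference (15 higher, none lower), whereas G2/M genes followed no common direction (4 higher, 9 lower; 9 and 4 with the array median subtracted, which turned the sign of their median). Cytosolic ribosomal protein genes were not called in 30 of 42 cases, higher in 10 and lower in 2, but 40 were higher with the array median subtracted, and 15 lower and 2 higher relative to the median difference. Tyms (0.68 ± 0.10) and Cdc45 (0.67 ± 0.03) rose most in S phase and Ccnb2 (-0.67 ± 0.03) fell most in G2/M.

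Stress response genes were mostly lower. Of 18 genes of the integrated stress and unfolded protein responses 15 were lower and 2 higher. Besides Atf3, the transcription factor genes Cebpb (-1.83 ± 0.04) and Atf5 (-1.60 ± 0.04), the glutathione-degrading enzyme gene Chac1 (-1.96 ± 0.06), Trib3 (-1.54 ± 0.04) and Ddit3, encoding CHOP (-1.34 ± 0.03), fell. Of 15 p53 targets 12 were lower and 3 higher, with Pmaip1, encoding NOXA (-2.12 ± 0.05), among the lowest, and the cell cycle inhibitor gene Cdkn1a (0.55 ± 0.03) higher. The small heat shock genes Cryab (-4.89 ± 0.05) and Hspb2 (-3.02 ± 0.06), neighbours on chromosome 9, fell; a dim second probe set of Cryab was called higher by 0.13. B2m, the light chain of MHC class I and often used as a housekeeping gene, lay between 11.42 and 11.5 (median 11.45) in the control arrays and between 9.03 and 9.17 (median 9.075) in the knockdown arrays, and fell by 2.37 ± 0.03. The lowest of 39 proteasome genes were the 3 immunoproteasome subunits Psmb8 (-0.67 ± 0.09), Psmb9 (-0.58 ± 0.06) and Psmb10 (-0.39 ± 0.03). The guanylate-binding protein genes Gbp2b (-4.37 ± 0.08) and Gbp2 (-3.61 ± 0.06), neighbours that interferon induces, fell and the chemokine gene Cxcl10 fell by 1.99 ± 0.08. Other interferon-responsive genes rose, among them Oas1a (1.53 ± 0.03) and Rsad2 (1.10 ± 0.06). Of 19 RNA sensor and interferon response genes 6 were higher, 5 lower and 8 not called, beside 35.5% higher and 26.3% lower among all genes; with the array median subtracted 15 were higher and 3 lower.

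A few genes took levels with YAP/TAZ siRNA that neither control arm had. Taking the control cells in 2i as a second reference, 108 genes (0.594%) were called in the same direction against both control arms at 2-fold or more, 39 above both and 69 below both; 48.3% of all genes were called against controls in 2i. The same 8 knockdown arrays enter both differences, so these are given as levels. The embryonic beta-like globin gene Hbb-bh1 lay between 4.38 and 5 (median 4.64) in the control arrays and between 8.24 and 8.52 (median 8.39) in the knockdown arrays, and its mean in 2i was 4.83. The alpha-like globin gene of the embryo, Hba-x, had means of 6.70 with knockdown, 4.82 in control and 4.78 in 2i. Hbb-y rose by 2.06 ± 0.06, and by 5.14 ± 0.07 and 5.32 ± 0.06 at its other probe sets, both of the x_at kind whose probes may match related genes, and the adult genes Hba-a1, Hba-a2 and Hbb-b2 were not called. Ngfr, the p75 neurotrophin receptor gene, had means of 9.16, 6.76 and 6.92 in the same order, and the tubulin-binding gene Stmn3 of 9.77, 7.24 and 7.72. Below both controls, the insulin receptor substrate gene Irs1 had means of 6.33, 9.91 and 7.92. Fam13c had 5.37, 8.70 and 8.29, the transcription factor gene Bach2 6.11, 8.66 and 7.89, and Fst 6.34, 8.40 and 8.76. Chac1 (7.22, 9.18 and 9.23) and Atf5 (7.79, 9.39 and 9.81) of the stress response were of this kind, whereas Nkx1-2 (8.83 in 2i) and Acta2 (7.84) had knockdown means within 1 unit of the 2i level.

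**Figure D5:**
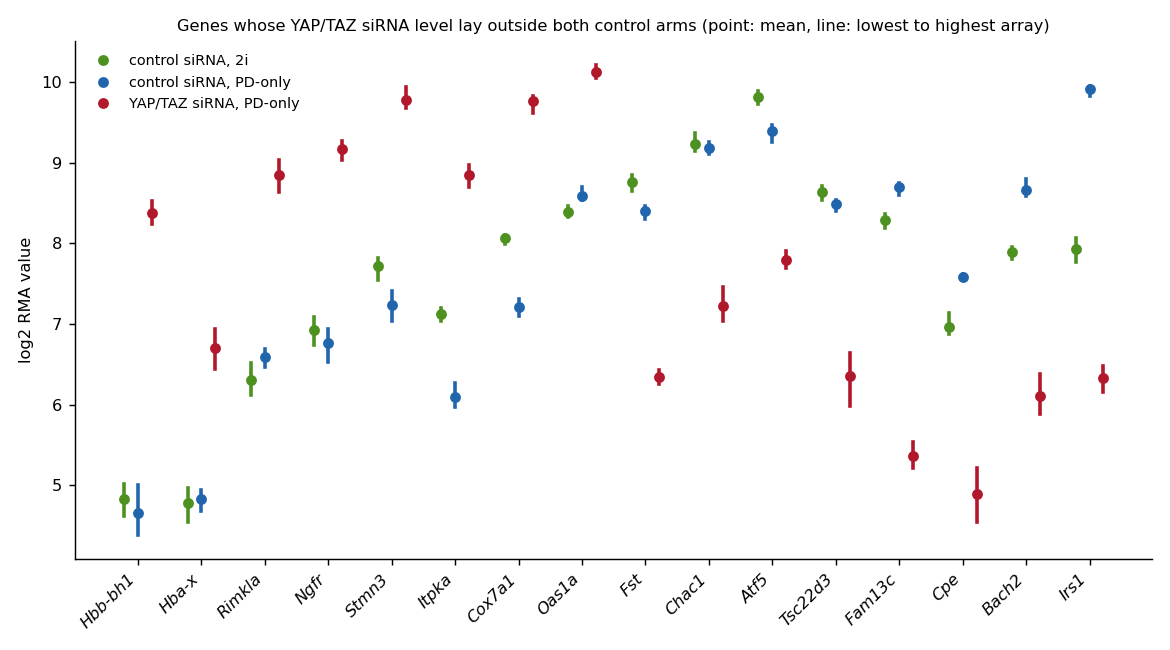
Levels (log2 RMA value) of 16 genes in control cells in 2i (green, 7 arrays), control cells in PD-only medium (blue, 7 arrays) and knockdown cells in PD-only medium (red, 8 arrays); points are means and lines run from the lowest to the highest array. The red range lies above both control ranges in the 8 genes on the left, Hbb-bh1 to Oas1a, and below both in the 8 on the right.

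Some of the genes called at 2-fold or more were neighbours. Of 18009 pairs of adjacent measured genes (RefSeq order, GRCm38.p6), 125 had both members called at 2-fold or more. Of these, 101 pairs moved in the same direction, 71 down and 30 up, and 24 in opposite directions. Among single genes 6.37% were called at that size, 1.9% higher and 4.47% lower, so some such pairs arise without any link. Whether 125 exceeds that number was not tested. Some pairs are related genes, such as Gbp2b and Gbp2, whose probes may match each other. The pairs with the largest smaller change were Krt8 with Krt18, Col4a1 with Col4a2, Gbp2b with Gbp2 and Adamts1 with Adamts5. Fos and Jdp2 on chromosome 12 fell together, and Hbb-bh1 and Hbb-y on chromosome 7 rose together. In opposite pairs, Manba rose beside Slc39a8, a zinc and manganese transporter gene (-3.01 ± 0.07), and Btla rose beside Cd200 (-2.27 ± 0.08).

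Over all promoters with a single start, GGAATG stood in 17.3% of 481 promoters of genes lower by 2-fold or more, 14% of 215 of genes higher by 2-fold or more and 12.9% of all. The AP-1 site TGANTCA stood in 6.24%, 5.12% and 6.1%, and the CArG box in 3.12%, 0.465% and 1.37%. No test was made of these shares, and no match says only that the letters are not in this window.

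Probe sets bear on single genes. The 1290 other probe sets of 661 genes called at 2-fold or more were called in the same direction in 976 cases, not called in 289 and called in the opposite direction in 25, which belonged to 23 genes.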

How the data were processed

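The deposited table holds log2 values for 45101 probe sets on 22 arrays, made with RMA (background correction, quantile normalization and probe summary on the log scale) per the submitters' processing notes. Total RNA was extracted with Trizol and labelled from the 3′ end, per the labels' protocols; RMA compresses differences of dim probe sets, and 3′ labelling ties values to RNA integrity. Probe sets with 1 gene symbol (34945) were reduced to 18193 genes by the highest mean over all arrays; 932 with several symbols and 9160 not listed were left out. limma 3.58.1 (R 4.3.3) was fitted to 6 group means, without a replicate block, and p-values were adjusted by Benjamini-Hochberg over all genes; the code was tested on simulated data. Array measures were compared by exact permutation with scipy 1.17.1. The members, gene lists and tests were chosen with earlier results of these data known. Genes were named by rule: the 30 highest and 30 lowest well-measured differences whose arms do not overlap, up to 5 called members of each list (all members of the TEAD, Hippo, AP-1, destruction complex and Wnt ligand lists), the 10 largest in each direction outside both control arms, and neighbour pairs. Another 48 of 248 genes, 44 of them list members (such as Ccn2, Cdh1 and Zfp42), were named after their values were seen. The members of a further gene list are not reported here. Replicate letters did not pair the arrays: correlations of same-letter arrays ran from -0.064 to 0.118. Alternatives tried were the probe set rule, a filter on dim genes, normalization, variance model, array weights, an Actb covariate, single siRNAs, the block and leaving out each array.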

Additional observations from a re-analysis of the deposited data

Results flagged for a closer look

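In 31 of 496 sets of arrays tested, 1 array stood apart from the rest of its arm by Dixon's criterion, a share of 6.25%; chance flags about 1 in 20. In the control arm, an array lay below the other 6 for Tead1 (11.26 against 11.30), Tead2 (8.74 against 8.81), Acta1 (12.75 against 12.97), Dsp (10.54 against 10.61), Cldn7 (8.69 against 8.80), Cldn6 (8.68 against 8.80), Loxl1 (7.26 against 7.45), Amer1 (7.42 against 7.51), Zfp42 (12.83 against 12.95), Atf5 (9.26 against 9.38), Hspb2 (9.12 against 9.27), Batf (6.16 against 6.35), Gata4 (4.58 against 4.82) and Lhx1 (3.30 against 3.59), each given with the nearest of the other arrays. A control array lay above the other 6 for Ankrd1 (7.32 against 7.13), Cdh1 (12.64 against 12.56), Col4a1 (10.79 against 10.67), Nkx1-2 (3.69 against 3.46), Cdx2 (5.73 against 5.31), Pmaip1 (8.85 against 8.74) and Hbb-b2 (3.58 against 3.38). In the knockdown arm, an array lay below the other 7 for Acta1 (6.92 against 7.08), Cldn6 (6.09 against 6.37), Col1a1 (4.69 against 5.03), Adamts1 (4.16 against 4.46), Fbxw11 (12.48 against 12.57), Phgdh (10.76 against 10.90) and Gbp2b (3.68 against 3.95). A knockdown array lay above the other 7 for Wwtr1 (9.41 against 9.28), Myl9 (6.02 against 5.77) and Trpm1 (10.87 against 10.80). For Wwtr1, Ankrd1, Acta1, Nkx1-2 and Trpm1 these gaps were small beside the difference between the arms.

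Probe sets left out of the gene table also changed. Of 9160 that the annotation does not list, limma called 143 at 2-fold or more between the arms, 47 higher and 96 lower. Of 932 assigned to several genes it called 30, 8 higher and 22 lower.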

How the results depend on the processing

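The difference between the arms was recomputed under 40 settings. Counts of calls stayed within 1.5 times the reported ones, with these exceptions. Without genes below the median level, which tests fewer genes, 724 genes were called at 2-fold or more and 469 of them were lower. With the array median subtracted, 11710 genes were called higher rather than 6463. Between the control siRNAs, 1 gene was called with a trended, robust variance model. Leaving out each array in turn gave 10764 to 11381 genes called, 1158 to 1174 at 2-fold or more, 340 to 355 higher, 807 to 826 lower, 0 between the mixes, 0 between the controls, 8511 to 8797 against controls in 2i and 105 to 114 outside both control arms. With the replicate letter as a block, 11261 genes were called, 1161 at 2-fold or more; since letters did not pair the arrays, no call is read from it. Of 248 named genes, 212 kept direction and call in all settings in which they were tested. With the array median subtracted, Tead1 (0.0533), Cnn3 (0.0696), Cdh1 (0.0688), Amer1 (0.0217), Ctnnb1 (0.0542), Batf (0.1192) and Hbb-b2 (0.1054) turned from below 0 to above it. Of 600 counts of list members, 134 moved by over 1.5 times, among them the ribosomal genes (10 higher and 2 lower; 40 and 0 with the array median subtracted; 2 and 15 relative to the median difference). In the 250 bases before the start, GGAATG stood in 11.4% and TGANTCA in 5.4% of all promoters, and these 2 of 24 shares left the binomial interval of the reported one. Differences below about 0.2 in size are of the order of the shift between scalings.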
